A study of Mus musculus with 12 samples.

Results

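The retinas of 129 and B6 mice were compared after 3 days in culture with vehicle alone (3DIV), as 129 minus B6 on 2 arrays for each strain. These were the 4 of 12 arrays whose labels give a retinal explant cultured for 3 days without CHIR99021. All 45037 probe sets that are not controls were tested. Of these, 34945 carry a single gene symbol and together cover 18193 genes. The B6 mice were C57BL/6NCrSlc and the 129 mice 129X1/SvJJmsSlc, both 10 weeks old, and the methods of the study give males. The neural retina was isolated and kept as an explant in medium that also held EdU, a label for newly made DNA, and the solvent of the inhibitor. The other 8 arrays hold intact retina of both strains and explants kept for the same time with CHIR99021 at 15 µM, an inhibitor of the kinase GSK3. Each group was made from 2 retinas. The labels call them biological replicates but do not say whether both came from 1 animal, so the p-values measure only the spread between these arrays, which may be technical. The study asked which genes accompany the unequal proliferation of Müller glia in explants of these strains.

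Müller glia are the radial glia of the retina. They span all of its layers, feed and buffer the neurons, and in fish re-enter the cell cycle after injury to replace lost neurons, whereas in mammals they usually respond with gliosis. Isolating a retina cuts the axons of the ganglion cells and separates the photoreceptors from the pigmented epithelium, so an explant is also a model of injury. The guanylate-binding proteins (GBP) and the immunity-related GTPases (IRG) are large enzymes that cells make when interferon binds its receptor, and they attack microbes inside the cell. The microglia are the resident macrophages of the retina and supply much of its complement and many of its chemokines.

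The arrays of a group resembled each other. Pearson's correlation of log2 intensities between the 2 arrays of a group was 0.9965 to 0.9978 over the 6 groups, and the median intensity of the 12 arrays lay between 68.8 and 70.7. The tissue matched its label. All 4 measured rod markers, all 4 cone markers, all 4 Müller glia markers, all 3 amacrine markers and all 4 ganglion cell markers were above the median intensity on all 4 vehicle arrays, against 0 of 4 lens markers, 0 of 2 erythrocyte markers, 1 of 4 markers of the pigmented epithelium, 1 of 3 of vessels, 1 of 3 of T cells and 1 of 2 of bipolar cells. Of the 4 microglia markers 2 passed. Their summed intensity was 1046 and 913 on the B6 vehicle arrays and 570 and 579 on the 129 vehicle arrays. Some control probe sets differed between the strains. The dap transcript, a bacterial RNA added during labelling, gave a 5′ signal of 5.36 and 5.15 (log2) on the B6 vehicle arrays and of 7.85 and 8.47 on the 129 vehicle arrays. Its 3′ signal exceeded its 5′ signal by 4.23 and 4.09 against 2.45 and 2.07, and by 2.16 to 3.73 on the other 8 arrays. For thr, another added RNA, the excess was 3.64 and 3.46 against 2.76 and 2.16. The mouse's own Gapdh gave -0.01 and 0.01 against -0.03 and 0.01, and Actb 0.72 and 0.58 against 0.70 and 0.77. For 18S ribosomal RNA of the mouse the 3′ signal was 9.64 and 8.11 on the B6 vehicle arrays and 9.85 and 9.91 on the 129 vehicle arrays, and the 5′ signal 9.81 and 8.03 against 10.4 and 10.6, so that B6 3DIV replicate 2 stood apart. Its 3′ minus 5′ difference was -0.18 and 0.08 against -0.58 and -0.70. The part of these differences in the results was not tested. The files hold no detection calls. The erythrocyte markers, whose cells the explants should lack, read 12.0 to 18.9 on the vehicle arrays. Where both arrays of a strain lay near or below this range, no fold is given, and the log2 difference of the fit depends on the background.

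**Figure D1:**
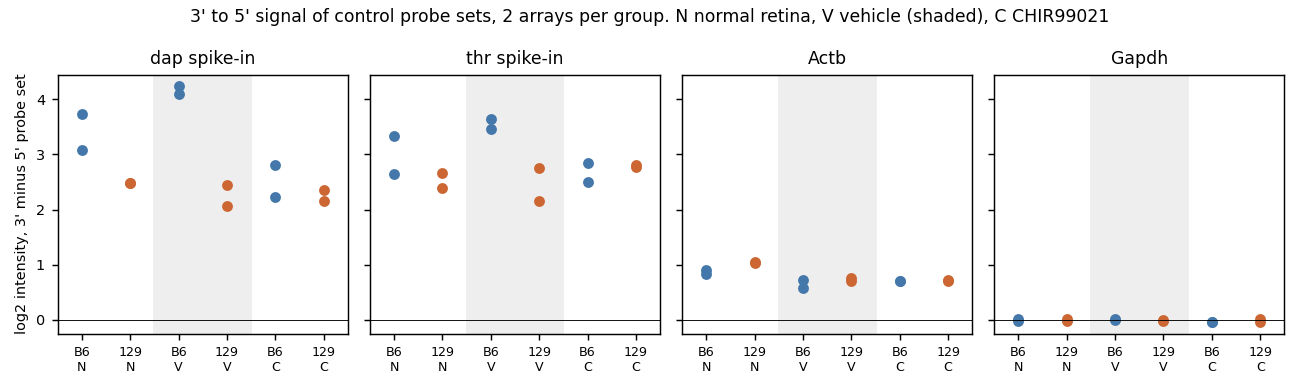
Excess of the 3′ over the 5′ signal (log2, vertical axis) for the added RNAs dap and thr and for the mouse genes Actb and Gapdh on each of the 12 arrays, by group. For dap the B6 vehicle arrays lie at 4.23 and 4.09 and the 129 vehicle arrays at 2.45 and 2.07, whereas for Gapdh all 4 lie within 0.03 of 0.

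A gene was called higher or lower where its limma p-value, adjusted with Benjamini-Hochberg over all probe sets, was below 0.05. Where a gene had several probe sets, the 1 with the highest mean level stood for it. In this way 20.9% of 18193 genes were called, 1956 (10.8%) higher in 129 explants and 1847 (10.2%) lower, and 122 (0.671%) and 178 (0.978%) of these differed at least 2-fold. The median difference over all genes was -0.01 (log2). Every count of list members in vehicle explants below is to be read beside these shares of 10.8% higher and 10.2% lower. For intact retina the shares were 5.41% and 5.83%, and with CHIR99021 7.32% and 5.02%. For the change from intact retina they were 1.74% upwards and 1.32% downwards. Over all probe sets, of which 20.0% were called, the calls were 5146 higher (11.4%) and 3859 lower (8.57%). Bright probe sets were called more often. Of the 22518 above the median level, fitted alone, 5070 were called higher and 3415 lower. The share of higher calls depended on the scaling. When each array was centred on 11 housekeeping genes, which moved the median of all probe sets by 0.07, the calls over all probe sets became 6777 higher and 2500 lower. The split also depended on the probe sets. The other probe sets of the named genes gave 2586 higher and 1222 lower calls, against 1956 and 1847 for the brightest. Of 8134 such other probe sets above the median level, 677 gave a strain difference more than 0.5 above that of the brightest and 372 more than 0.5 below it. In intact retina these numbers were 346 and 282, and with CHIR99021 182 and 277. The part of the 3′ excess on the B6 vehicle arrays in this was not tested. Both 129 arrays lay above both B6 arrays for 5566 genes (30.6%) and below both for 6111 (33.6%), so that arrays without overlap are common in this comparison and were read together with the test.

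Probe sets of the same gene did not always give the same answer. Of the 9010 genes with at least 2 probe sets, 486 had a probe set called with at least a 2-fold difference. In 71 of these another probe set of the gene was called in the opposite direction, and in 136 all the others lay within 1.2-fold. Whether the strains differ in sequence under these probes was not tested. The largest values were taken over all probe sets. Of the 12 genes with the largest higher values, 7 were found by a probe set that was not the brightest of its gene, and for 8 of 12 the brightest was called the same way. Of the 12 with the largest lower values these numbers were 8 and 8. Paip1, which helps messenger RNA to be translated, read 69.6 and 56.5 in B6 and 808 and 810 in 129 on another probe set, a difference of 3.69, whereas its brightest probe set gave -0.01. Nedd4, a ubiquitin ligase, read 416 and 501 against 3881 and 4077 on another probe set, a difference of 3.12 beside 0.06 on its brightest probe set. Map1b, a microtubule protein, gave 0.48 on its brightest probe set and 3.13 on another. Genes below are therefore given by their brightest probe set unless another is named.

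Among the large differences that the brightest probe set carried, Gdpd3, a lysophospholipase, read 49.4 and 54.3 in B6 explants and 1179 and 903 in 129 explants. It was 19.9-fold higher in 129 (log2 4.32 ± 0.21 SE, n = 2 and 2, adjusted p = 4.04e-07). Emp1, a membrane protein of the claudin-like family, read 31.5 and 33.7 against 300.1 and 320.2, which was 9.52-fold higher (3.25 ± 0.09, adjusted p = 8.7e-09). In the other direction, the predicted gene Gm4792 read 2145 and 2208 in B6 and 98.2 and 127 in 129, or 19.5-fold lower (-4.28 ± 0.12, adjusted p = 1.25e-08). Slc5a8, a sodium-coupled carrier of lactate and short-chain fatty acids, read 139 and 186 against 9.53 and 10.3 (-4.02 ± 0.21, adjusted p = 6.22e-07). Galc, the lysosomal enzyme that breaks down galactosylceramide, read 146 and 136 against 10.9 and 17.5 (-3.35, adjusted p = 1.67e-06), and the zinc finger gene Zfp874a 125 and 105 against 9.42 and 10.8 (-3.51, adjusted p = 4.65e-08). The last 3 genes were near background in 129. Of the 12 largest higher values, 10 were also called higher in the intact retina of 129 and 12 in explants with CHIR99021, and of the 12 largest lower values all 12 were called lower in both. These calls do not compare sizes: Gbp2b, 1 of the 12 largest higher values, gave 1.13 in the intact retina and 5.60 at 3DIV.

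The interferon-inducible GTPases were higher in 129 explants. Of 11 measured GBP and IRG genes 8 were called higher and 0 lower, beside 10.8% and 10.2% of all genes, and their median difference was 0.92 (log2) beside -0.01 over all genes. The count was 7 without any 1 of the 4 vehicle arrays. Several of these genes share a short run of letters upstream of their start, so the promoters of 4 of them are shown before their values. The 250 bases before the annotated start are from RefSeq (mouse GRCm38.p6, the C57BL/6J reference and not the sequence of 129) and are written 5′ to 3′ on the strand of the gene. Capitals mark matches to GAAANNGAAA on either strand, a form of the interferon-stimulated response element. Overlapping matches are joined.
Gbp2b (chr3:142594597-142594846, plus strand): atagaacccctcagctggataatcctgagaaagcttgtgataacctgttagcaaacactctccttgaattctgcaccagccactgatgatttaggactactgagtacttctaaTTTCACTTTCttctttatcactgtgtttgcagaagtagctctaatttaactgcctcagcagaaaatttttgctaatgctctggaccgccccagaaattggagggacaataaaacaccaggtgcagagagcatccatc
Gbp3 (chr3:142559794-142560043, plus strand): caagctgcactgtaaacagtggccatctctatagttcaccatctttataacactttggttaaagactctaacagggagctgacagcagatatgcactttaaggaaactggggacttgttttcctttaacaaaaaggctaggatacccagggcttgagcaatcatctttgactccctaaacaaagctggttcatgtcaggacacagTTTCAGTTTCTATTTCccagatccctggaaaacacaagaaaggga
Gbp7 (chr3:142530086-142530335, plus strand): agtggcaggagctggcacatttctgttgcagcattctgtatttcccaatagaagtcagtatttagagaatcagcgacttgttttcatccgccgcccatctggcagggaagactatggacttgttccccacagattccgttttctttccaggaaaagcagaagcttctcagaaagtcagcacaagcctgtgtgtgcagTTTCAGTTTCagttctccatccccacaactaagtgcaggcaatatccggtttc
Irgm1 (chr11:48871421-48871670, minus strand): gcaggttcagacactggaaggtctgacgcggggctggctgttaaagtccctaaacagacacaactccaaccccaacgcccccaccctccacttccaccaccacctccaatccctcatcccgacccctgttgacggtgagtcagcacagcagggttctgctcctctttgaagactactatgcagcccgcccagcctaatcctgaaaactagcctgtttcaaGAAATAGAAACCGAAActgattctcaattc
In Gbp2b the match lies 137 to 128 bases before the start and in Gbp7 53 to 44. Gbp3 holds matches at 45 to 36 and at 39 to 30, in 1 of its 2 listed promoters, and Irgm1 at 30 to 21 and at 24 to 15. Of the 8 measured GTPase genes with a listed promoter, 7 (87.5%) held this run of letters, beside 936 of 27025 genes (3.46%). The gene that was not called higher, Gbp2, holds it as well, and of 29 antiviral genes with a promoter 8 (27.6%) do, 3 of the 12 called higher and 5 of the other 17. The letters TTCNNNGAA, a STAT site, were in 3 of the 8 GTPase promoters and in 8.13% of all genes. A match is a description of these letters in the reference and not a site shown to be bound.

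Gbp2b, which encodes guanylate-binding protein 1 of the mouse, was near background in B6. Its intensity was 17.1 and 18.9 on the B6 arrays and 974 and 780 on the 129 arrays (log2 5.60 ± 0.19, adjusted p = 3.7e-08). In 129 it was well above the array median. The neighbouring genes Gbp3 and Gbp7 were bright in both strains. Gbp3 read 980 and 970 against 2876 and 2732 (2.88-fold, 1.52 ± 0.10, adjusted p = 5.52e-06), and Gbp7 read 1709 and 1698 against 4895 and 4731 (2.82-fold, SE 0.11, adjusted p = 7.71e-06). In both genes the arrays of a strain nearly coincided and the strains were well separated. Of the IRG members, Ifi47 read 219 and 219 against 631 and 515 (2.61-fold, adjusted p = 2.8e-05), Iigp1, which disrupts the vacuoles of parasites, 741 and 714 against 1930 and 1624 (2.43-fold, adjusted p = 0.00043), and Irgm1, a regulator of the other IRG proteins, 854 and 794 against 1573 and 1537 (1.89-fold, adjusted p = 0.000121). Irgm2 was 1.53-fold higher (adjusted p = 0.00133). Igtp, at 1612 and 1528 against 1921 and 1936, was 1.23-fold higher (adjusted p = 0.0276), a call that was lost without any 1 of the 4 vehicle arrays. Gbp2 read 692 and 835 against 667 and 542, a difference of -0.34 that did not pass the test (adjusted p = 0.172).

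Before culture few of these genes stood higher in 129. In the intact retina 1 of the 11 GTPase genes was called higher in 129 and 4 lower, with a median of -0.29, and the change of the strain difference from intact retina to 3DIV was tested as an interaction, which shares the explant arrays with the comparison above. It was called upwards in 9 of 11 genes, beside 1.74% of all genes, and in 8 or 9 without any 1 of the 4 vehicle arrays. Gbp7 stood at 128 and 107 in intact B6 retina and at 106 and 94.9 in intact 129 retina, and the change of its strain difference was 1.72 (adjusted p = 0.00039). Gbp3 went from -0.96 in the intact retina to 1.52, a change of 2.48 (adjusted p = 2.7e-05), and Gbp2b from 1.13 to 5.60, a change of 4.47 (adjusted p = 2.7e-05). Igtp went from -1.18 to 0.30 (change 1.48, adjusted p = 0.00017). Gbp2, which was lower in 129 in the intact retina (-1.52), changed by 1.18 (adjusted p = 0.024), a call that was lost without any 1 of 4 arrays, of which 129 3DIV replicate 1 and B6 3DIV replicate 1 belong to the vehicle explants. With CHIR99021 the strain difference was smaller in 3 of the 11 genes by the interaction test, beside 0.357% of all genes, but this count was 1 or 2 without any 1 of the vehicle arrays. For Irgm1 it held in each of these fits: with CHIR99021 B6 explants read 1604 and 1562 and 129 explants 1547 and 1435, so that the strain difference was -0.09 and its change from vehicle -1.004 (adjusted p = 0.0091).

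**Figure D2:**
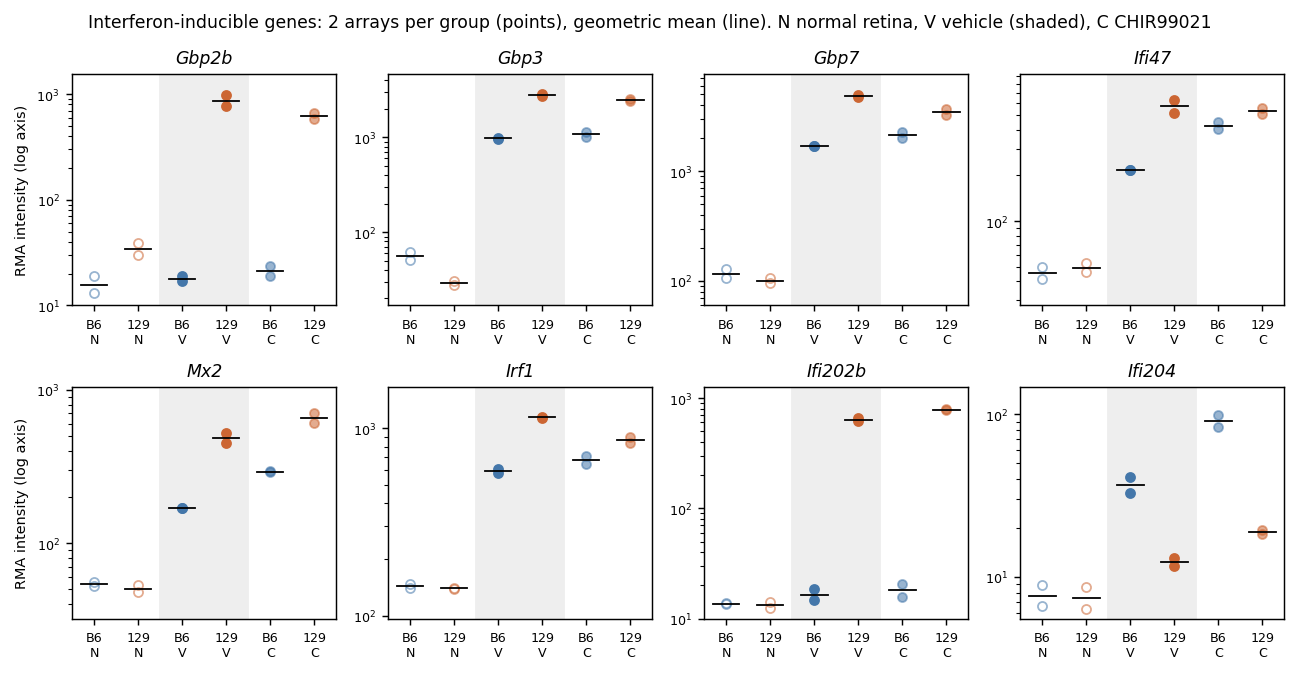
Intensity (RMA, log axis) of 8 interferon-inducible genes on each of the 12 arrays, for intact retina (N), vehicle explants (V, shaded) and CHIR99021 explants (C); points are arrays and lines the geometric mean of the 2 arrays of a strain. In the shaded columns the 129 arrays lie above the B6 arrays for Gbp2b, Gbp3, Gbp7, Ifi47, Mx2, Irf1 and Ifi202b, and below them for Ifi204.

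The other interferon-inducible families moved both ways. Of 38 measured antiviral effectors and interferon regulators, 14 were called higher in 129 explants and 4 lower, with a median of 0.09. Over all genes 10.8% were called higher and 10.2% lower, so the lower calls were near that share. Without any 1 of the vehicle arrays these were 11 to 13 and 4. Ifi44l, of unknown enzymatic function, read 12.6 and 12.1 against 87.6 and 90.1 (2.85 ± 0.10, adjusted p = 3.79e-08). Mx2, a dynamin-like GTPase that blocks viruses, read 169 and 168 against 522 and 450 (2.88-fold, 1.52 ± 0.10, adjusted p = 3.81e-06). The transcription factor Irf1, which drives many of these genes, read 610 and 578 against 1143 and 1154 (1.93-fold, 0.95 ± 0.08, adjusted p = 1.58e-05), and Pml, the scaffold of nuclear bodies, 153 and 137 against 308 and 306 (2.12-fold, adjusted p = 0.000127). Ddx60, a helicase that assists the sensing of viral RNA, was 2.16-fold higher (adjusted p = 0.000311) and Samhd1, which degrades nucleotides, 1.86-fold (adjusted p = 0.000134). In all of these genes both 129 arrays exceeded both B6 arrays, as they did in 30.6% of all genes. On the other side, Ifitm3, which hinders viral entry, was abundant in B6 at 2198 and 2632 and lower in 129 at 920 and 902 (2.64-fold lower, -1.40 ± 0.20, adjusted p = 0.000688). Ifi27l2a was lower by -1.43 (adjusted p = 0.00283), and Ube2l6, the conjugating enzyme for the ubiquitin-like protein Isg15, by -1.02 (adjusted p = 0.000848). Xaf1, a pro-apoptotic gene, depended on the probe set: the brightest read 853 and 1014 against 308 and 228 (3.51-fold lower, adjusted p = 3.02e-05), whereas another read 67.8 and 70.1 against 1305 and 1219, a difference of 4.19. No direction is given for it.

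The strain difference of these antiviral genes also changed with culture. Over all genes 1.74% changed upwards and 1.32% downwards. Of the 38 genes, 14 had an interaction upwards from intact retina to 3DIV and 0 downwards, and 11 or 12 without any 1 of the vehicle arrays. In the intact retina 0 were called higher in 129 and 9 lower, beside 5.41% and 5.83% of all genes. Mx2 gave -0.10 in the intact retina (change 1.62, adjusted p = 0.00033) and Irf1 -0.04 (change 0.99, adjusted p = 0.0013). The p200 family, sensors of DNA in the nucleus and cytosol, differed among themselves. Ifi202b read 14.6 and 18.5 in B6 explants and 653 and 613 in 129 explants (5.26 ± 0.14, adjusted p = 8.7e-09), and in the intact retina 13.5 and 14.0 against 14.1 and 12.6. Its strain difference thus changed by 5.31 (adjusted p = 7e-07) and was 5.44 with CHIR99021. By brightest probe sets, Ifi202b was the only member of the 8 measured that was called higher. The study lists a probe set of Ifi203, another member, that was higher in 129 after damage but not in intact retina. Ifi204 was lower, at 32.9 and 41.3 against 13.1 and 11.7 (adjusted p = 0.000157), as was Mndal, at 44.5 and 61.6 against 23.5 and 25.2 (adjusted p = 0.00458). Of 11 TRIM genes, ubiquitin ligases of antiviral defence, 4 were called higher and 4 lower. Trim12c read 387 and 389 against 864 and 822 (2.17-fold higher, adjusted p = 0.000261). Trim30a, a brake on inflammatory signalling, read 237 and 292 against 89.8 and 81.0 (3.08-fold lower, adjusted p = 6.17e-05), beside 0.04 in the intact retina, a change of -1.66 (adjusted p = 0.0046). Trim34a was 5.92-fold lower on its brightest probe set (200.1 and 195 against 35.4 and 31.4), but another of its probe sets read 18.6 and 18.4 against 62.3 and 44.4, so its direction was not settled.

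Few genes of antigen presentation differed between vehicle explants. Of 19 measured genes 1 was called higher and 1 lower, with a median of 0.00, whereas in the intact retina 9 of them were called lower in 129 and 0 higher, with a median of -0.39. The median change from intact retina was 0.34, with 3 genes called upwards and 1 downwards (1 or 2 upwards and 0 downwards without any 1 of the vehicle arrays). The gene called higher was H2-T24, a nonclassical class I gene, at 37.1 and 22.2 against 166 and 148 (5.47-fold, 2.45 ± 0.27, adjusted p = 0.000133). H2-M3, which presents formylated peptides, was called lower, at 314 and 306 against 157 and 160 (1.96-fold, adjusted p = 2.15e-05). Class I genes are near copies of each other, so probe sets of this family may share signal.

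Microglial and macrophage genes were lower in 129, in a comparison where 10.2% of all genes were called lower and 10.8% higher. Of 43 measured genes 29 were called lower and 1 higher, with a median of -0.82, and without any 1 of the vehicle arrays 26 to 29 were called lower. Since the arrays hold RNA of the whole retina, fewer cells of a type and less RNA in each cell cannot be told apart. Ms4a6b, a membrane protein of myeloid cells, read 140 and 151 in B6 and 39.9 and 38.5 in 129 (3.72-fold lower, -1.89 ± 0.14, adjusted p = 7.44e-06). Aif1, the microglial marker Iba1, read 74.5 and 73.5 against 26.0 and 24.5 (2.93-fold lower, -1.55 ± 0.11, adjusted p = 6.55e-06), and Cd48 and Cd84, adhesion receptors of leukocytes, were 3.12-fold (adjusted p = 5.17e-06) and 2.96-fold lower (adjusted p = 8.74e-05). The defining receptors of microglia differed less. Csf1r, the receptor for their survival factor, read 802 and 706 against 438 and 447 (1.7-fold lower, -0.77 ± 0.08, adjusted p = 8.39e-05), and Cx3cr1, the fractalkine receptor, 151 and 115 against 86.7 and 86.7 (1.52-fold lower, adjusted p = 0.00329). At the other end of the list stood Lyz2, the lysozyme of macrophages, which was 3.77-fold lower (1645 and 1705 against 479 and 413). The member called higher was Cd14, the co-receptor for bacterial lipopolysaccharide, at 186 and 194 against 424 and 414 (2.21-fold, 1.14 ± 0.10, adjusted p = 3.64e-05).

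In the intact retina 11 of these 43 genes were called lower and 1 higher, beside 5.83% and 5.41% of all genes. The change from there to 3DIV was called downwards in 15 genes and upwards in 1, beside 1.32% and 1.74% of all genes. Without any 1 of the vehicle arrays it was called downwards in 5 to 10, with 5 left when 129 3DIV replicate 2 was out, 7 for B6 3DIV replicate 1 and 9 for B6 3DIV replicate 2. Ms4a6b, whose interaction held in all of these fits, gave -0.32 in the intact retina and changed by -1.58 (adjusted p = 0.0028). Cd52, a surface peptide of leukocytes, was higher in 129 in the intact retina, at 39.9 and 43.5 against 177 and 154, and lower at 3DIV, at 308 and 314 against 190 and 155, so its strain difference changed by -2.84.

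Complement showed the same direction. Of 13 measured genes 7 were called lower and 0 higher, with a median of -0.49. In intact retina 6 were called lower and 0 higher, with a median of -0.23. With CHIR99021 7 were called lower and 1 higher, with a median of -0.49. The change from intact retina was called downwards in 1 gene and upwards in 0. C1qc, a chain of the recognition molecule C1q, read 446 and 375 against 178 and 172 (2.34-fold lower, adjusted p = 1.03e-05). Of the regulators, Serping1, the C1 inhibitor, read 2038 and 2367 against 1030 and 923 (2.25-fold lower, -1.17 ± 0.19, adjusted p = 0.0017). Cd59a, which blocks the membrane attack complex, read 895 and 873 against 291 and 281 (3.09-fold lower, -1.63 ± 0.08, adjusted p = 3.31e-07). Cd59a differed by the same amount, -1.65, in intact retina and with CHIR99021.

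Of 30 measured chemokines and cytokines, 11 were called lower and 3 higher. The lower count was 8 to 10 and the higher count 1 to 4 without any 1 of the vehicle arrays, with the 1 left when B6 3DIV replicate 2 was out. Among those that fell were CC chemokines, ligands for monocytes and macrophages, and also Cxcl5, a ligand for neutrophils (-0.87, adjusted p = 0.00207). Ccl9 read 402 and 353 against 139 and 123 (2.88-fold lower, -1.52 ± 0.10, adjusted p = 5.5e-06), beside -0.34 in the intact retina, a change of -1.18 (adjusted p = 0.0032). Ccl12 read 645 and 773 against 295 and 270 (2.5-fold lower, adjusted p = 0.000308), Ccl6 1445 and 1013 against 653 and 515 (2.09-fold, adjusted p = 0.00104), and Ccl3 216 and 223 against 122 and 109 (1.9-fold, adjusted p = 0.000206). None of these genes overlapped between the strains, and 33.6% of all genes likewise had both 129 arrays below both B6 arrays. By contrast, of 15 genes of the IL6 family and its STAT3 pathway 5 were called higher and 0 lower, and 3 or 4 were called higher without any 1 of the vehicle arrays, with 3 when 129 3DIV replicate 2 was out. The median of these 15 genes was 0.02, with 8 above 0 and 7 below. With CHIR99021 2 were called higher and 2 lower. Il6 was dim, at 15.1 and 20.3 in B6 and 54.1 and 40.2 in 129, below the median of all probe sets on each array. It was near background in B6 and called higher in 129 (1.41 ± 0.16, adjusted p = 0.000182). It differed by -0.12 in the intact retina (change 1.53, adjusted p = 0.0081) and by -0.22 with CHIR99021 (change from vehicle -1.63, adjusted p = 0.0095). Lif and Clcf1, ligands that signal through the shared receptor chain gp130, were 1.5-fold (156 and 172 against 260 and 234, adjusted p = 0.00174) and 2.24-fold higher (204 and 211 against 465 and 465, adjusted p = 0.000353).

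**Figure D3:**
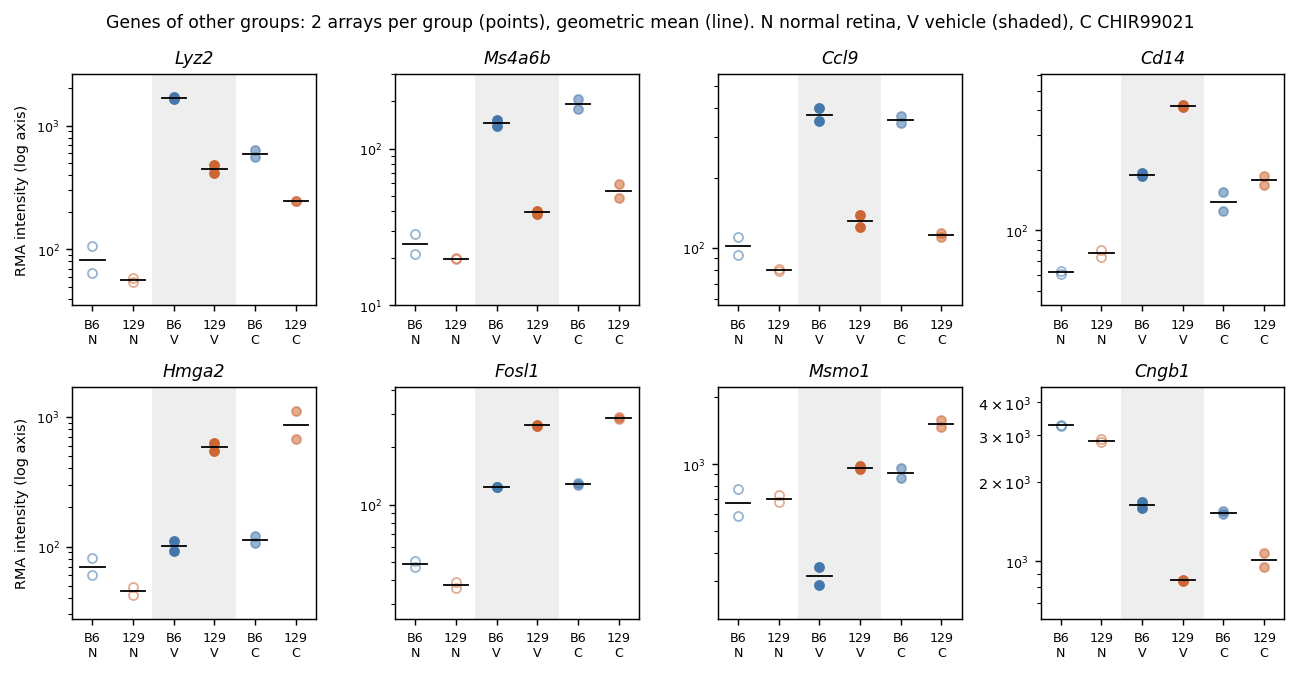
Intensity (RMA, log axis) of 8 further genes on each of the 12 arrays, drawn as for the interferon-inducible genes. In the shaded vehicle columns Lyz2, Ms4a6b, Ccl9 and Cngb1 lie lower and Cd14, Hmga2, Fosl1 and Msmo1 higher in 129 than in B6, without overlap. Over all genes 33.6% lay lower and 30.6% higher without overlap.

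Genes of reactive gliosis, which Müller glia switch on after injury, were split. Of 23 measured genes 8 were called lower and 5 higher (3 higher and 6 to 8 lower without any 1 of the vehicle arrays), with a median of -0.14. In intact retina 7 of them were called lower and 3 higher, with a median of -0.28. With CHIR99021 12 were called lower and 4 higher, with a median of -0.42. The change from intact retina was called upwards in 6 and downwards in 5. Lcn2, a secreted iron-binding protein, was among the brightest, at 14296 and 16856 in B6 and 5289 and 4303 in 129 (3.25-fold lower, -1.70 ± 0.16, adjusted p = 5.2e-05), and differed by -1.64 and -1.70 in intact retina and with CHIR99021. Bcl3, a nuclear partner of NF-kB, read 539 and 566 against 224 and 204 (2.59-fold lower, adjusted p = 2.88e-05). A2m, a protease inhibitor, read 1820 and 1918 against 825 and 813 (2.28-fold lower, adjusted p = 0.000904), and S100a6, a calcium-binding protein, 4456 and 5148 against 2063 and 1837 (2.46-fold, adjusted p = 0.0025). Of those called higher, Lgals3, a galectin of phagocytes and reactive glia, read 2102 and 1724 against 3500 and 3066 (1.72-fold, adjusted p = 0.00109), which was less than in the intact retina, where its difference was 1.93 (change -1.15, adjusted p = 0.0076). The intermediate filament Gfap, the classic gene of gliosis, read 367 and 246 against 241 and 263 on its brightest probe set (-0.26, adjusted p = 0.357). Another of its probe sets read 859 and 582 against 158 and 136 (-2.27, adjusted p = 3.13e-05), so the direction of Gfap rested on the probe set.

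Of 25 genes of resting Müller glia 4 were called higher and 7 lower, beside 10.8% and 10.2% of all genes, with a median of -0.02. Kcnj10, the potassium channel by which Müller glia clear potassium, read 959 and 874 against 1551 and 1341 (1.57-fold higher, adjusted p = 0.00246), and the caveolar protein Cav1 2173 and 2144 against 2866 and 2944 (1.35-fold, adjusted p = 0.00131). Apoe, the lipid carrier of glia, read 3111 and 3461 against 1757 and 1362 (2.12-fold lower, adjusted p = 0.00144), and Clu, a secreted chaperone, 12700 and 13664 against 8042 and 8368 (1.61-fold lower, adjusted p = 0.000139). Genes of retinal progenitors leaned the other way. The members with the largest higher values were Hmga2, Fignl1, Rrm2, Ltbp1, Myc and Ccnd1. The study lists all of these as candidates chosen on these same arrays, so the lean is not independent evidence. Rrm2, Myc and Ccnd1 also count in the replication or G1 lists below. Of 26 measured, 10 were called higher and 2 lower, with a median of 0.13, and 7 to 9 and 1 without any 1 of the vehicle arrays. Sox2, a factor of neural progenitors that Müller glia keep, read 1912 and 1859 against 2673 and 2509 (1.37-fold higher, adjusted p = 0.0026), and Nes, the filament nestin, 259 and 281 against 408 and 377 (1.45-fold, adjusted p = 0.00481). Lin28a, an RNA-binding protein of early progenitors, was dim and lower (41.8 and 35.0 against 18.3 and 19.4, adjusted p = 0.000103).

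The study names the chromatin factors Hmga2 and Mbd1, chosen there on these same arrays, so their direction here is not independent evidence. Hmga2, an AT-hook protein of embryonic tissues, read 110 and 91.6 against 543 and 627 (5.81-fold higher, 2.54 ± 0.21, adjusted p = 2.12e-05). Its difference was -0.61 in intact retina, where it did not pass the test (adjusted p = 0.097), and 2.94 with CHIR99021. The change from intact retina was 3.15 (adjusted p = 0.0006). Mbd1, which binds methylated DNA, read 2058 and 2117 against 775 and 774 (2.7-fold lower, -1.43 ± 0.08, adjusted p = 1.24e-06), and all 5 of its probe sets were lower, by -0.98 to -2.75. Of 27 chromatin and DNA methylation genes 8 were called higher and 4 lower (4 or 5 and 4 without any 1 of the vehicle arrays). Of the ligands and receptors that the study followed, Edn2, an endothelin that injured photoreceptors release, read 2556 and 2576 against 1405 and 1593 (1.71-fold lower, adjusted p = 0.00315). In intact retina it stood at 348 and 280 against 36.9 and 48.8, so the strain difference shrank from -2.88 to -0.78 (change 2.10, adjusted p = 0.0006). The receptor Ednrb read 209 and 218 against 458 and 459.5 (2.15-fold higher, adjusted p = 1.63e-05). On this probe set, its brightest, it differed by 1.14 in the intact retina. The study lists other Ednrb probe sets whose strain ratio was larger after damage than in intact retina. Whether the gap of Ednrb grew in culture thus rested on the probe set. Of 6 genes of this pathway Edn2 and Ednrb were the only 2 called. At the Fgf2 locus 3 transcripts were lower: Fgf2 itself, a survival factor for photoreceptors, was dim at 26.9 and 38.9 against 17.3 and 15.3 (adjusted p = 0.00133), its antisense transcript Fgf2os read 231 and 273 against 23.8 and 28.1 (9.71-fold lower, adjusted p = 8.29e-08), and Nudt6, which lies on the opposite strand and overlaps Fgf2, 1468 and 1520 against 354 and 384 (4.05-fold lower, adjusted p = 2.51e-06). The difference of Fgf2os grew by -2.31 from intact retina to 3DIV (adjusted p = 0.00017).

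Genes of DNA replication were higher in 129 explants. Of 46 measured genes 16 were called higher and 0 lower, with a median of 0.24. The count was 10 without B6 3DIV replicate 2, and 11 or 12 without any 1 of the other vehicle arrays. Cell cycle genes of this kind often carry a site for E2F, the factor that the retinoblastoma protein holds back. The 250 bases before the start of Uhrf1 and Mcm5 are shown. Both were called higher and match a loose form of that site, in which N is any base. Capitals mark TTTNNCGC on either strand, again in RefSeq GRCm38.p6 on the strand of the gene, with overlapping matches joined.
Uhrf1 (chr17:56303087-56303336, plus strand): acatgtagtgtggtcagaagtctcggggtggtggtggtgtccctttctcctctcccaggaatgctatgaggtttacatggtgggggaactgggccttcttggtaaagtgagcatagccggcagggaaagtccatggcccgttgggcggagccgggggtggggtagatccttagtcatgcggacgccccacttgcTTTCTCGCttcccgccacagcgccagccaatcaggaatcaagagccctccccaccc
Mcm5 (chr8:75109259-75109508, plus strand): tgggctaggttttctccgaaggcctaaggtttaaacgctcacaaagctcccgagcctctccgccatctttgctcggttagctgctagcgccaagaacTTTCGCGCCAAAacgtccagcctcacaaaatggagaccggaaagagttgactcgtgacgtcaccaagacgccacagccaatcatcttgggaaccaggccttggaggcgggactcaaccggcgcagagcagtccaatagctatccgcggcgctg
The match lies 56 to 49 bases before the start of Uhrf1, and those of Mcm5 at 153 to 146 and 149 to 142. This run of letters was found in 7 of the 14 replication genes that were called higher and had a listed promoter and in 4 of the other 24 (16.7%), beside 4.94% of all genes. It was searched on both strands, describes the reference only, and says nothing of binding.

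Uhrf1, which keeps DNA methylated after replication, read 43.5 and 40.3 against 103 and 120 (2.65-fold higher, 1.41 ± 0.16, adjusted p = 0.000182), and its strain difference had changed by 1.97 from intact retina (adjusted p = 0.002). Rrm2, the subunit of ribonucleotide reductase made in S phase, read 99.8 and 94.2 against 204 and 212 (2.14-fold, 1.10 ± 0.18, adjusted p = 0.00149), and Cdc6, which loads the helicase, 27.8 and 23.7 against 48.8 and 50.8 (1.94-fold, adjusted p = 0.000777). Mcm5, a subunit of that helicase, was brighter, at 215 and 201 against 321 and 346 (1.6-fold, 0.68 ± 0.12, adjusted p = 0.00242). In these genes both 129 arrays lay above both B6 arrays, as in 30.6% of all genes, at levels that were low or moderate. Fewer mitosis genes were called. Of 46 measured, 9 were called higher and 3 lower, with a median of 0.16, but 5 higher when 129 3DIV replicate 1 was out and 6 when B6 3DIV replicate 2 was. Of the genes of this list above the median level, 3 were called higher and 3 lower. Nusap1, a spindle protein, read 44.5 and 41.4 against 94.8 and 81.8 (2.05-fold higher, 1.04 ± 0.12, adjusted p = 0.000184), and Top2a, the topoisomerase of dividing cells, 110 and 94.3 against 194 and 185 (1.86-fold, adjusted p = 0.0044). Pttg1, securin, went the other way at 3766 and 3610 against 576 and 478 (7.03-fold lower, -2.81 ± 0.12, adjusted p = 1.46e-07), a difference that was -4.56 in intact retina.

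The mitosis genes differed more between the strains with CHIR99021. With CHIR99021 41 of the 46 were called higher in 129, beside 7.32% of all genes, with a median of 1.16. The strain difference was larger than with vehicle in 32 of 46 by the interaction test, beside 0.599% of all genes. That count was 10 to 18 without any 1 of the vehicle arrays, with the 10 left when B6 3DIV replicate 1 or 129 3DIV replicate 2 was out, 17 for 129 3DIV replicate 1 and 18 for B6 3DIV replicate 2. For Nusap1 it held in each fit, as its difference was 2.27 with CHIR99021 (change 1.24, adjusted p = 0.0082). Of the replication genes 30 of 46 were called higher with CHIR99021, but the change from vehicle was called in 3, and in 1 without any 1 of the vehicle arrays.

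Of 24 regulators of the G1 phase 9 were called higher and 1 lower, with a median of 0.22, and 6 to 8 were called higher without any 1 of the vehicle arrays. Ccnd1, cyclin D1, read 856 and 1036 against 1567 and 1790 (1.78-fold higher, 0.83 ± 0.13, adjusted p = 0.00136). In the intact retina it was lower in 129 (-0.56, adjusted p = 0.019), so its difference changed by 1.39 (adjusted p = 0.0044). By RT-PCR the study instead found cyclin D1 higher in 129 before damage too. The Ccnd1 probe set that the study lists differed less in intact retina. Cdk6, a partner of cyclin D1, read 111 and 113 against 181 and 180.4 (1.61-fold, adjusted p = 0.000401), and Myc, a factor that drives cell growth, 110 and 113 against 245 and 201 (2-fold, adjusted p = 0.0026). Ccnd3, cyclin D3, was the member called lower, at 795 and 925 against 507 and 448 (1.8-fold, -0.85 ± 0.10, adjusted p = 0.000249). By RT-PCR the study found no significant difference in cyclin D3 between the strains.

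Of the genes that respond to the MAP kinase ERK, more were called higher in 129 than lower. Of 25 genes of MAP kinase output and AP-1, 12 were called higher and 3 lower, with a median of 0.35. The counts fell to 7 and 2 when B6 3DIV replicate 1 was left out, to 7 and 1 when 129 3DIV replicate 2 was, and to 9 and 1 for either of the other vehicle arrays. Fosl1, the AP-1 subunit Fra-1, read 123 and 124 against 260 and 263 (2.12-fold, 1.08 ± 0.07, adjusted p = 4.28e-06). It was lower in 129 in the intact retina (-0.37, adjusted p = 0.0066), and its difference changed by 1.45 (adjusted p = 7.5e-05). Dusp6, a phosphatase that ERK induces and that restrains it, read 435 and 472 against 750 and 788 (1.7-fold, 0.76 ± 0.10, adjusted p = 0.000402), with a change of 1.14 from intact retina (adjusted p = 0.003). Dusp5, a nuclear phosphatase of ERK, was 1.66-fold higher (adjusted p = 0.00094), and Spry2, another inhibitor in this pathway, read 593 and 602 against 948 and 977 (1.61-fold, adjusted p = 0.00158). The 3 called lower were Dusp4 (-0.62, adjusted p = 0.0144), Ier3 (-0.47, adjusted p = 0.00405) and Fosb (-0.46, adjusted p = 0.0419). In the intact retina 1 of these 25 genes was called higher and 4 lower, and the change was called upwards in 6 and downwards in 1, but upwards in only 2 or 3 without any 1 of the vehicle arrays.

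Some genes of cholesterol synthesis were higher in 129 explants with vehicle. Of 20 measured, 7 were called higher and 1 lower with vehicle (6 to 8 higher without any 1 of the vehicle arrays), with a median of 0.23, while 0 were called in intact retina in either direction and 1 with CHIR99021. The change from intact retina was called upwards in 5 genes, but in 1 when 129 3DIV replicate 2 was out, in 2 when B6 3DIV replicate 2 was out, and in 4 when either of the other vehicle arrays was. Msmo1, which removes methyl groups from sterols, read 345 and 287 against 945 and 977 (3.05-fold higher, 1.61 ± 0.13, adjusted p = 1.72e-05), whereas in intact retina it read 773 and 582 against 724 and 675 (change 1.55, adjusted p = 0.0024). The 129 explants were thus above both intact groups and the B6 explants below them. The other members differed by less: Idi1, an isomerase at the start of the isoprenoid branch, read 420 and 380 against 552 and 608 (1.45-fold, adjusted p = 0.00117), Nsdhl, which acts beside Msmo1, 196 and 198 against 276 and 282 (1.42-fold, adjusted p = 0.000977), Sqle, squalene epoxidase, 381 and 369 against 512 and 549.6 (1.41-fold, adjusted p = 0.00115), and Hmgcs1, the synthase before the statin target, 1377 and 1506 against 1883 and 2038 (1.36-fold, adjusted p = 0.00276).

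Photoreceptor genes were partly lower in 129 explants. Of 25 rod genes 7 were called lower and 1 higher, with a median of -0.19, and of 15 cone genes 6 were called lower and 0 higher, with a median of -0.25. The rod count was 5 or 6 without any 1 of the vehicle arrays, and the cone count 3 to 5, with the 3 left when B6 3DIV replicate 2 was out. Cngb1, a subunit of the rod channel that cyclic GMP opens, read 1585 and 1680 against 846 and 851 (1.92-fold lower, -0.94 ± 0.08, adjusted p = 1.69e-05). It did not pass the test in intact retina (-0.19, adjusted p = 0.14), and its difference changed by -0.75 (adjusted p = 0.0068). Abca4, which clears retinal from the outer segment discs, read 1362 and 1310 against 591 and 675 (2.12-fold lower, adjusted p = 0.000252), but differed by -0.98 in intact retina already. Guca1b, the activator of guanylate cyclase, read 5148 and 5310 against 2984 and 3327 (1.66-fold lower, adjusted p = 0.000143). The rod gene called higher was Grk1, a kinase of photoreceptors, at 158 and 178 against 396 and 433 (2.47-fold, adjusted p = 0.000546), which was higher by 1.95 in intact retina. Of the cone genes, Pde6c, the cone phosphodiesterase, read 337 and 449 against 157 and 167 (2.4-fold lower, adjusted p = 0.00199) beside 0.02 in intact retina, and Slc24a2, the cone exchanger for sodium, calcium and potassium, 381 and 414 against 211 and 218 (1.85-fold lower, adjusted p = 4.92e-05). Pde6h, which inhibits that phosphodiesterase, showed a large but uneven gap (621 and 983 against 230.1 and 216, adjusted p = 0.00593), whose call was lost without B6 3DIV replicate 2.

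Inner retinal neurons differed little as groups. Of 14 bipolar genes 1 was called higher and 3 lower, and of 17 amacrine and horizontal cell genes 1 and 2. Ganglion cell genes, whose axons are cut in an explant, were split, with 4 of 15 called higher and 6 lower and a median of 0.00 (2 or 3 higher and 3 to 5 lower without any 1 of the vehicle arrays, with 3 lower when B6 3DIV replicate 2 or 129 3DIV replicate 2 was out). Opn4, the photopigment melanopsin of a resistant type of ganglion cell, read 65.3 and 63.8 against 97.9 and 96.8 (1.51-fold higher, 0.59 ± 0.08, adjusted p = 0.000348), and Rbpms, an RNA-binding protein of ganglion cells, 105 and 101 against 169 and 154 (1.57-fold, adjusted p = 0.0013). Stmn2, a tubulin-binding protein of growing axons, read 1642 and 1815 against 1114 and 942 (1.69-fold lower, adjusted p = 0.000262), and the neurofilament Nefh 441 and 418 against 269.8 and 307 (1.49-fold lower, adjusted p = 0.000924).

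Secreted and matrix genes gave some of the clearest single differences. Of 41 measured genes of the extracellular matrix and of migration, 12 were called higher and 7 lower, with a median of 0.02, but 6 higher when B6 3DIV replicate 2 was out, 7 when either 129 3DIV replicate was, and 9 when B6 3DIV replicate 1 was. Matn2, an adaptor protein of the matrix, read 235 and 206 against 973 and 740.0 (3.86-fold higher, 1.95 ± 0.34, adjusted p = 0.00252). Met, the receptor for hepatocyte growth factor, read 186 and 148 against 385 and 376 (2.3-fold higher, adjusted p = 0.000311), and Plat, tissue plasminogen activator, 300.3 and 331 against 658 and 617 (2.02-fold, adjusted p = 1.31e-05). Col4a6, a basement membrane collagen, went the other way at 113 and 133 against 42.4 and 38.1 (3.05-fold lower, adjusted p = 4.41e-06), as did Mgp, an inhibitor of calcification, at 687 and 821 against 338 and 324 (2.27-fold lower, adjusted p = 4.4e-05). Of 16 S100 proteins and annexins 6 were called lower and 1 higher, and 5 or 6 lower without any 1 of the vehicle arrays. S100a4, a marker of motile cells, read 483 and 603 against 161 and 124 (3.83-fold lower, -1.94 ± 0.23, adjusted p = 0.000252) although it differed by 0.52 in intact retina (change -2.45, adjusted p = 0.0045), and S100a1 895 and 980 against 515 and 506 (1.83-fold lower, adjusted p = 5.4e-05). Ndp, norrin, a Müller glia ligand of the Wnt receptor Fzd4 that maintains vessels, read 342 and 349 against 837 and 811 (2.39-fold higher, 1.25 ± 0.08, adjusted p = 2.07e-06), beside 0.10 in intact retina (change 1.15, adjusted p = 0.00049).

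**Figure D4:**
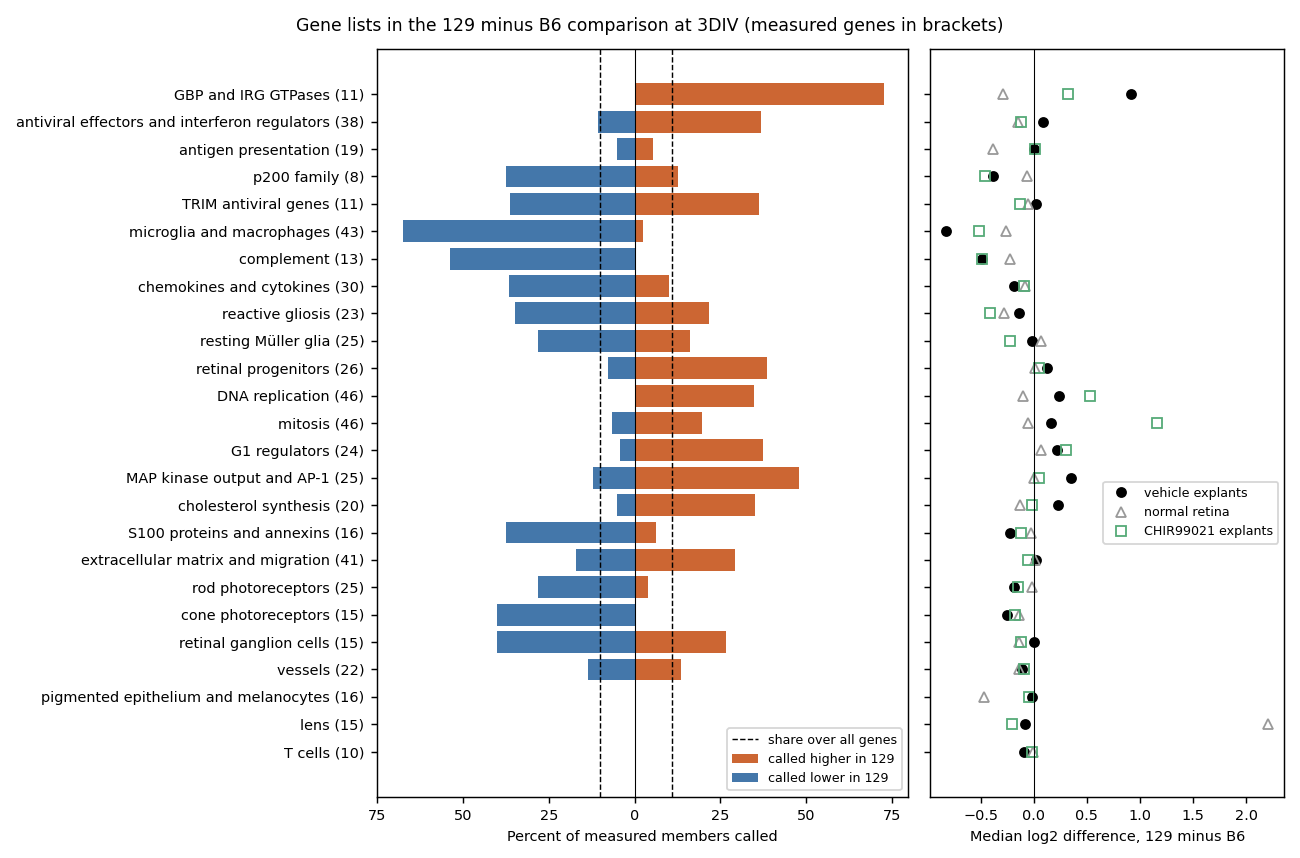
Left, the percent of the measured genes of each list called higher (orange) or lower (blue) in 129 vehicle explants, with dashed lines at the share over all genes (10.8% and 10.2%); right, the median log2 difference of each list in vehicle explants, intact retina and CHIR99021 explants. The GTPases reach 0.92 with vehicle from -0.29 in intact retina, and the microglia list lies at -0.82 with vehicle.

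How far the differences at 3DIV were already present before culture was read from the intact retina, whose arrays are not shared with the explants. There 11.2% of genes were called, 985 (5.41%) higher in 129 and 1061 (5.83%) lower. Of the 1956 genes higher at 3DIV, 510 (26.1%, and 51.8% of those higher in intact retina) were called higher there and 38 in the opposite direction. Of the 1847 lower, 594 (32.2%, and 56.0% of those lower in intact retina) were called lower there. The sharing was greater for large differences. Of the 122 genes at least 2-fold higher at 3DIV 68 (55.7%) were called higher in intact retina, and of the 178 at least 2-fold lower 127 (71.3%) were called lower. With CHIR99021, again on arrays of their own, 12.3% of genes were called, 1332 (7.32%) higher and 913 (5.02%) lower. They shared 778 of the 1956 higher genes (39.8%, and 58.4% of those higher with CHIR99021) and 686 of the 1847 lower genes (37.1%, and 75.1% of those lower with CHIR99021), and 106 of the 122 (86.9%) and 163 of the 178 (91.6%) with 2-fold differences. In all 3 settings 64 of the 122 and 119 of the 178 were called the same way.

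The test of the change itself called fewer genes. From intact retina to 3DIV the strain difference changed in 558 genes (3.07%), upwards in 317 (1.74%) and downwards in 241 (1.32%). Over all probe sets it changed in 2.58%, upwards in 696 (1.55%) and downwards in 465 (1.03%). This split depended on the scaling: with the arrays centred on housekeeping genes the median over all probe sets moved by 0.25 in the intact retina and by -0.17 in the change, and the calls over all probe sets became 348 upwards and 2047 downwards, and in the intact retina 19603 higher and 1220 lower in place of 2735 (6.07%) and 2453 (5.45%), of 11.5% called in all. Of the 11 housekeeping genes themselves 6 were called lower in intact 129 retina and 0 higher, with a median of -0.26, so this centring moved all other genes of intact 129 retina upwards. From vehicle to CHIR99021 it changed in 174 genes (0.956%), upwards in 109 (0.599%) and downwards in 65 (0.357%). Over all probe sets it changed in 1.35%, upwards in 175 (0.389%) and downwards in 435 (0.966%). Some genes passed the test with CHIR99021 and not with vehicle. Calcb, a calcitonin gene-related peptide, read 18.1 and 20.4 in B6 and 15.1 and 17.4 in 129 with vehicle (-0.24, adjusted p = 0.271), and 62.3 and 76.8 against 379.7 and 289 with CHIR99021, a change of 2.50 (adjusted p = 0.00079). Nox4, an oxidase that makes hydrogen peroxide, read 11.9 and 12.2 against 11.1 and 8.76 with vehicle (-0.29, adjusted p = 0.162) and 104 and 83.2 against 10.3 and 12.0 with CHIR99021, a change of -2.77 (adjusted p = 0.0005).

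**Figure D5:**
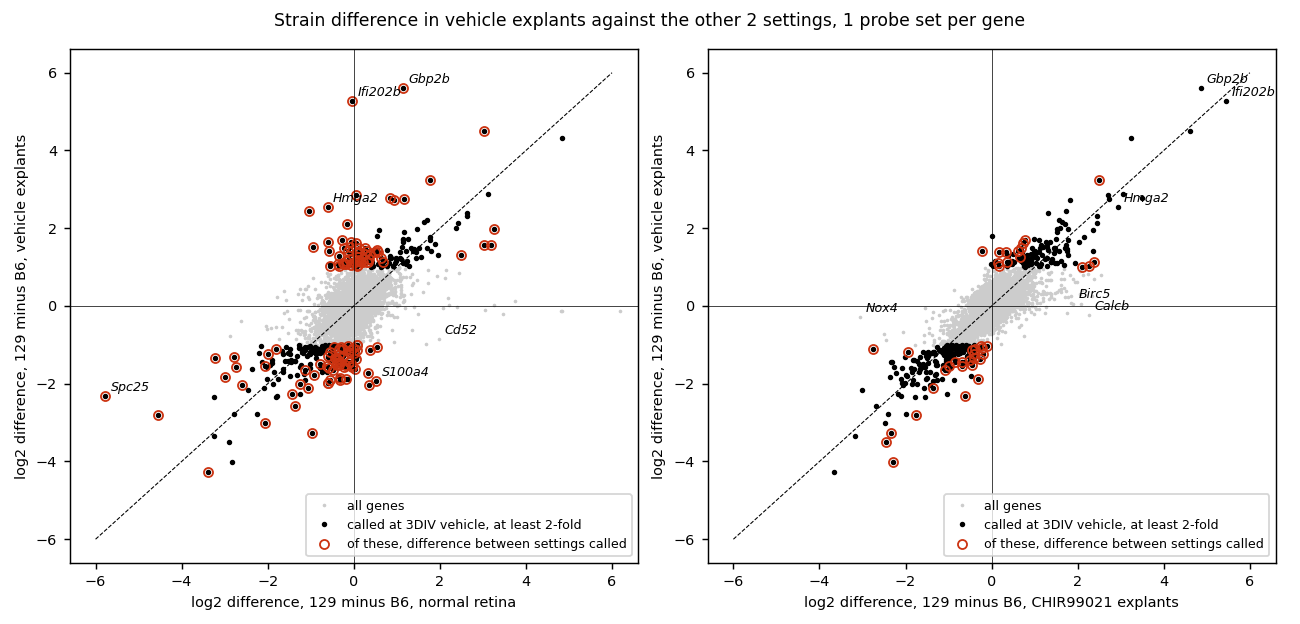
Log2 strain difference (129 minus B6) of each gene in vehicle explants (vertical axis), 1 probe set per gene. The horizontal axis gives that in intact retina (left) and in CHIR99021 explants (right). Black points are the 122 and 178 genes called with at least a 2-fold difference with vehicle. Red circles mark those of them whose difference was also called as changed between the settings.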

How the data were processed

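RNA of 12 samples was labelled by the authors from its 3′ end and hybridised to Affymetrix arrays of the whole mouse genome. The deposited values are intensities, which the authors summarised with RMA (version not given in the sources used here), on a linear scale. They were taken to log2, and groups follow the labels. Of 45101 probe sets, 64 controls were left out. A single symbol was given to 34945 probe sets, several to 932 and none to 9160. No filter on signal was applied, and the brightest probe set stood for its gene. All arrays entered 1 linear model, in which each of the 6 groups had its own mean, in limma 3.58.1 in R 4.3.3 (eBayes, 4.69 prior and 6 residual degrees of freedom), and the Benjamini-Hochberg adjustment of p-values ran over 45037 probe sets within each comparison, with a limit of 0.05. An error given after ± is the standard error of the fit. Interactions were contrasts of the same model. Tables and figures were made with Python 3.11.15, pandas 2.3.3 and matplotlib 3.10.9, and the fit was tested on simulated data.

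The comparison, the gene lists and the genes to name were chosen with earlier results of these data known. Genes were named as the 12 largest differences in each direction among those called, up to 6 called members of a list in each direction, the members that the study names, and the 8 largest interactions in each direction. Irgm2, Igtp, Gbp2, Csf1r, Cx3cr1, Mcm5, the second probe sets of Gfap and Trim34a and some interactions of listed genes were named after their values were seen. Alternatives were the arrays of the compared groups alone, a replicate block, probe sets above the median level, the trend and robust settings of eBayes, cyclic loess, each array left out, centring on 11 housekeeping genes and, chosen after seeing the data, 1 probe set per gene. The number of arrays limits the precision. Promoters were read from a RefSeq table with 250 bases before each start.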

Additional observations from a re-analysis of the deposited data

Results flagged for a closer look

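The strain difference of vehicle explants differed from that of another setting, by a test of the difference itself as an interaction term in limma, for 1161 probe sets against intact retina and for 610 against CHIR99021 explants. The genes below are those with the largest such changes, and those whose change is given in the report. A change is a log2 value and its sign says whether 129 moved up or down relative to B6. No explanation was weighed for any of them.

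Against intact retina, 129 moved up in culture for the interferon-inducible genes Ifi202b (5.31), Gbp2b (4.47), Ifi44l (3.26), Gbp3 (2.48), Gbp7 (1.72), Mx2 (1.62), Igtp (1.48), Ifi47 (1.26), Gbp2 (1.18), Irgm1 (1.12) and Irf1 (0.99), and for the class I gene H2-T24 by 3.498. The cell cycle and chromatin genes Spc25 (3.45), Hmga2 (3.15), Uhrf1 (1.97) and Ccnd1 (1.39) moved the same way. Spc25, a kinetochore subunit, read 2327 and 2759 in intact B6 retina, 42.3 and 50.9 in intact 129 retina, 377 and 418 in B6 explants and 90.0 and 70.3 in 129 explants, so its upward change was the shrinking of a gap that B6 led throughout. A gap also shrank for Edn2 (2.10) and for Hdc, the enzyme that makes histamine (2.93 on its probe set with the largest change, and 1.44 on its brightest). Hdc read 117 and 142 in intact B6 retina and 14.6 and 15.3 in intact 129 retina on the first of these probe sets, and 12.4 to 15.5 in the vehicle explants of both strains. Signalling and lipid genes that moved up were Msmo1 (1.55), Il6 (1.53), Fosl1 (1.45), Ndp (1.15) and Dusp6 (1.14).

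Downwards against intact retina went the microglial and cytokine genes Cd52 (-2.84), Ms4a6b (-1.58), Ccl9 (-1.18) and Lgals3 (-1.15), the interferon-related Trim12a (-2.40, on a probe set that was not its brightest, and lost without B6 3DIV replicate 2) and Trim30a (-1.66), and the S100 genes S100a4 (-2.45) and S100a1 (-0.89). Others were Spata9 (-2.82, on a probe set that was not its brightest), the ribonuclease Ang (-2.59), the chromatin factor Mbd1 (-2.49 on its probe set with the largest change), the peroxisomal oxidase Hao2 (-2.43), the activin antagonist Fst (-2.40), Fgf2os (-2.31) and the rod channel subunit Cngb1 (-0.75). Fst read 143 and 138 in B6 explants and 33.8 and 34.2 in 129 explants, beside a difference of 0.35 in intact retina. Hao2 was a difference that culture removed, 2.40 in intact retina and -0.04 at 3DIV.

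Against CHIR99021 the changes upwards were mostly of mitosis genes, Kif2c (2.38, on a probe set that was not its brightest), Esco2 (2.06), Depdc1a (2.05), Aurkb (1.94), Ube2c (1.94), Birc5 (1.84), Cdc20 (1.78) and Nusap1 (1.24), besides the peptide gene Calcb (2.50). Birc5, survivin, differed by 0.05 with vehicle and by 1.90 with CHIR99021. The call for Ube2c was lost without any 1 of 6 arrays. Downwards went Nox4 (-2.77), Golm2 (-2.47), the transcript 4632427E13Rik (-2.12), Necab1 (-2.06, lost without B6 3DIV replicate 1), the nuclear RNA Malat1 (-1.94), Jmy (-1.91), Mndal (-1.85, lost with the replicate block and without any 1 of 7 arrays), Nedd4 (-1.83), Il6 (-1.63) and Irgm1 (-1.004). For Golm2 the probe set read 12.6 and 13.7 in B6 vehicle explants, 61.2 and 73.5 in B6 CHIR99021 explants and 57.1 to 75.8 in 129 explants of both kinds, whereas its brightest probe set changed by 0.01.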

How the results depend on the processing

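The 9005 calls between vehicle explants became 3854 with 1 probe set per gene, and ranged from 4860 to 9382 when an array was left out, with 4860 without 129 3DIV replicate 2, 5481 without B6 3DIV replicate 2 and 5876 without 129 3DIV replicate 1. The 5188 calls in intact retina became 2934 with only the compared arrays, 20823 with housekeeping centring and 2019 with 1 probe set per gene, and 3083 to 5060 with an array left out. The 4904 calls with CHIR99021 became 2351 with 1 probe set per gene and 2694 to 5252 with an array left out. The 1161 interactions with intact retina became 1856 above the median level, 2395 with housekeeping centring, 2440 with trend and robust settings, 647 with 1 probe set per gene, and 352 to 1138 with an array left out. The 610 interactions with CHIR99021 became 1464 with trend and robust settings, 125 with 1 probe set per gene, and 149 to 789 with an array left out. Fewer features enter with 1 probe set per gene and fewer arrays when an array is out. The cause of the other moves was not tested. Over the gene lists 328 calls ranged from 231 to 337.

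With a replicate block the calls were 8457, 4791, 4639, 967 and 519, in the order above, and 316 over the lists. The deviations of arrays with the same number correlated at -0.11 to 0.04, so the numbers do not pair the samples. Of 259 values given for single genes in vehicle explants, 187 kept their call and direction in every setting other than the filters, and 0 of 316 gene values reversed.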

Other observations

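Further gene groups were counted in the same way, against 10.8% of genes called higher and 10.2% lower. A larger share was called among probe sets above the median level, with 5070 higher and 3415 lower of 22518. The lists were not set against that share. Of 14 genes that neurons switch on after axon injury, 3 were called higher in 129 explants and 6 lower, with a median of -0.38 (2 or 3 higher and 4 or 5 lower without any 1 of the vehicle arrays). Sprr1a, which promotes axon growth, read 1745 and 1698 in B6 and 1024 and 872 in 129 (-0.86, adjusted p = 0.00109), and Gap43, the growth cone protein, 1359 and 1359 against 1088 and 1016 (-0.37, adjusted p = 0.00396). Sox11, a factor of regenerating neurons, was higher on its brightest probe set (583 and 512 against 966 and 899, 0.77, adjusted p = 0.000252) but not on another (-2.19). Of 29 p53 targets and cell death genes 6 were called lower and 2 higher, and 5 or 6 lower and 0 or 1 higher without any 1 of the vehicle arrays. The death receptor Fas read 87.9 and 94.9 against 51.8 and 40.6 (adjusted p = 0.00023), the p53 target Phlda3 395 and 403 against 243 and 235 (adjusted p = 0.000321), and Casp1, the protease of inflammasomes, 53.6 and 54.3 against 26.5 and 26.9 (adjusted p = 0.00103).

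Of 28 genes of the integrated stress response 7 were called higher and 1 lower, but 3 or 4 higher without any 1 of the vehicle arrays. Psat1, of serine synthesis, read 473 and 502 against 844 and 830.3 (adjusted p = 2.57e-05). Of 20 metallothioneins and NRF2 targets 4 were called higher and 7 lower (3 to 5 lower without any 1 of the vehicle arrays). The aldo-keto reductase Akr1b8 read 204 and 194 against 414 and 404 (adjusted p = 0.000539), while the epoxide hydrolase Ephx1 read 558 and 613 against 251 and 239 (adjusted p = 0.000234) and Gstm1, a glutathione transferase, 720.1 and 759.7 against 337 and 314 (adjusted p = 0.00136). In intact retina 8 of 24 genes of glycolysis and hypoxia were already called lower in 129 and 0 higher, with a median of -0.19. The change from there to vehicle explants was called in 0 of them. Of 24 genes of glycolysis and hypoxia 6 were called lower and 0 higher (3 to 6 lower without any 1 of the vehicle arrays, with 3 when B6 3DIV replicate 2 or 129 3DIV replicate 2 was out), with Pkm, pyruvate kinase, at 2185 and 2271 against 1495 and 1543 (adjusted p = 0.000385). Of 31 respiratory chain genes 6 were called lower, but 0 to 2 without any 1 of the vehicle arrays and 2 with housekeeping centring.

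Of 26 Wnt pathway genes 3 were called higher and 4 lower, but 0 lower without any 1 of the vehicle arrays. Of 19 FGF ligands and receptors these numbers were 1 and 2, and of 22 vessel genes 3 and 3 (2 or 3 higher and 1 or 2 lower without any 1 of the vehicle arrays). Among the vessel genes Notch4 read 49.6 and 48.5 against 155 and 153 (3.15-fold, adjusted p = 7.67e-05) and Ets1 63.5 and 63.5 against 168 and 151 (2.51-fold, adjusted p = 3.64e-05). No gene was called in either direction among 16 of the pigmented epithelium and melanocytes, 15 of the lens, 5 of erythrocytes, 10 of T cells and 11 housekeeping genes. The median of the lens genes was -0.08. In intact retina 5 of them were called higher in 129, with a median of 2.21, but 1 array carried most of this. Their summed intensity was 2351 and 36815 on the 2 arrays of intact 129 retina and 1188 and 1357 in intact B6 retina, and the median was 0.42 without 129 normal replicate 2. Among the 16 pigment cell genes 5 were called lower in intact 129 retina, with a median of -0.47. Their summed intensity was 13445 and 11199 in intact B6 retina and 5808 and 12362 in intact 129 retina, and 991 to 1486 in the explants. The part of these tissues in the changes from intact retina was not tested.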
